A study of Bos taurus with 60 samples.

Results

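LBP, SLPI, FCAMR and GP2 were followed in bovine mammary tissue from late lactation into the dry period. They are 4 named genes among the 25223 loci counted, chosen by name as genes of mucosal defence and secretory immunity and located by pairing each symbol with its locus in the study's supplementary tables. LBP was counted at XLOC_004038 (ENSBTAG00000016864), SLPI at XLOC_004484 (ENSBTAG00000004148), FCAMR at XLOC_006618 (ENSBTAG00000019799) and GP2 at XLOC_014726 (ENSBTAG00000006263), and each locus held 1 ENSEMBL gene. Mammary biopsies came from 12 multiparous Holstein cows, each biopsied at 5 time points (D-3, then D3 and D7, then D14 and D25, with dry-off as day 0), a total of 60 libraries. After dry-off, 6 cooled cows (CL) had shade with fans and water soakers, and 6 heat-stressed cows (HT) had shade alone. The D-3 biopsies of both groups were taken from lactating cows before these treatments began. All cows were pregnant and no cell type was sorted, so each library holds RNA of whole tissue, and the part of the udder biopsied alternated between time points.

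The mammary gland is a mucosal surface that is open to bacteria through the teat canal, and the weeks after milking stops are a period in which its defences change. LBP is the lipopolysaccharide-binding protein, a secreted acute phase protein that passes bacterial lipopolysaccharide to CD14 and the TLR4 complex. SLPI is the secretory leukocyte peptidase inhibitor, which protects mucosal surfaces from neutrophil elastase and has antimicrobial activity of its own. FCAMR is an Fc receptor that binds IgA and IgM, the antibody classes of secretions. GP2 is a membrane-anchored glycoprotein, known from pancreatic zymogen granules and intestinal M cells, that binds type 1 fimbriae of bacteria. LBP and SLPI therefore stand for soluble defence, and FCAMR and GP2 for binding of antibodies and bacteria at the cell surface.

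Total counts ranged from 20525083 to 26183990 per library. LBP counts lay between 54 and 25394, with a median of 3414 over the libraries, and GP2 counts between 7 and 12299, with a median of 603. FCAMR counts ranged from 0 to 4987, with a median of 307 and 1 library at 0. SLPI was sparse, with counts of 0 to 119, a median of 6 and 9 libraries at 0, so that a single library says little about it. Levels below are counts scaled to library size (CPM) after TMM scaling, which evens out libraries in which a few genes take a large share of the reads. Changes are log2 fold changes from edgeR's quasi-likelihood F-test, with the false-discovery rate (FDR) over all loci tested and a threshold of 0.05.

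Some libraries stood apart. The D14 library of CL cow 7965 had a mean correlation of 0.821 with the others, whose own means lay between 0.871 and 0.951. Its summed level of the epithelial markers KRT19, CLDN3, CLDN4 and CLDN7 was 8.01 CPM, against 491 to 2373 CPM in the other D14 libraries, and the fibroblast marker DCN was at 5392 CPM, against 561 to 1558 CPM. All 4 genes were at or near their lowest there, with LBP at 2.59, GP2 at 0.336 and FCAMR and SLPI at 0 CPM. The epithelial content of this biopsy thus goes against the other mammary libraries. The D14 and D25 libraries of HT cows 8513 and 8660 resembled the other cow's earlier samples more than their own, with mean correlations of deviations from the group means of 0.465 against -0.174 for cow 8513 at D14 and 0.409 against 0.135 for cow 8660 at D25. Values without these libraries are given beside the D14 and D25 results that they moved most. At D-3, the milk protein genes CSN1S1, CSN2 and LALBA together took 40.2% to 49.8% of all counts in 5 cows (7965, 8564 and 8647 of CL and 8541 and 8713 of HT) and 0.19% to 8.03% in the others.

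The 4 genes changed between late lactation and early involution in opposite pairs. From D-3 to D3, LBP and SLPI rose and FCAMR and GP2 fell, and all 4 passed the threshold, where 15.1% of 14714 loci did (887 or 6.03% up and 1330 or 9.04% down). With library size alone as the scale, the called loci split into 2217 up and 176 down, the median of all loci lay at 0.35 instead of -0.01 on the log2 scale, and the 4 genes kept their directions and calls. The supplementary tables held here list loci in order of their p for this comparison or for D7 vs. D3 and are cut short, so these genes could be paired because they ranked high in it. Their calls at D3 are therefore a description and not independent evidence. In bulk tissue, fewer cells of a type and less RNA per cell cannot be told apart.

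**Figure D1:**
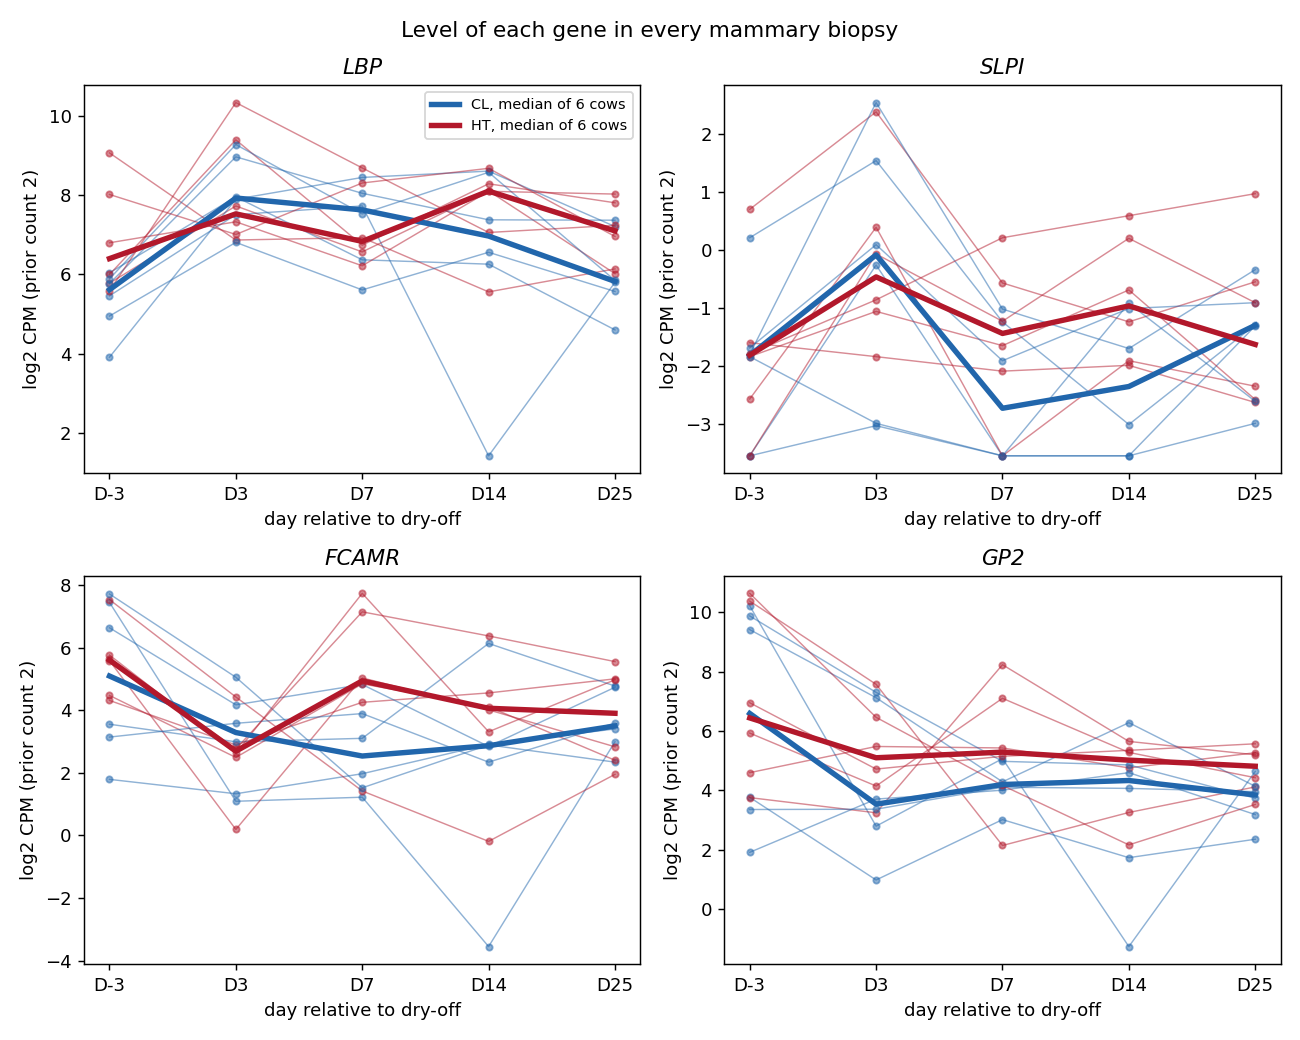
The level of each gene (log2 CPM with a prior count of 2, vertical axis) is plotted against the day relative to dry-off for every cow, with CL cows in blue, HT cows in red and thick lines at the median of 6 cows. LBP and SLPI are highest at D3 in 6 of 12 cows each, GP2 starts high in 5 cows and low in 7, and the D14 library of cow 7965 lies far below the others for LBP, FCAMR and GP2.

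LBP was higher at D3 than before dry-off in 10 of 12 cows. At D-3 its level ran from 14.9 CPM over a median of 57.1 to 537 CPM in the 12 cows, and at D3 from 112 over 225 to 1296 CPM. The ranges overlapped through HT cows 8513 and 8668, which held 537 and 259 CPM before dry-off and were the only cows in which LBP fell, to 117 and 129 CPM. The other 10 cows rose, 6 of 6 in CL and 4 of 6 in HT, with the highest D3 level in HT cow 8713. LBP rose 3.34-fold (log2 fold change 1.74 ± 0.51 SE, n = 12, FDR = 0.0144, edgeR). The within-cow change averaged 1.99 ± 2.04 SD on the log2 scale (exact sign-flip p = 0.00977, two-sided, 1 of 28 such tests over genes and comparisons).

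After D3, LBP showed no further step past the threshold. Its median was 153 CPM at D7, 221 CPM at D14 and 97.5 CPM at D25, with ranges of 48.9 to 412, 2.59 to 411 and 24.2 to 262 CPM. The log2 fold changes of the neighbouring steps were -0.98 ± 0.50 for D7 vs. D3 (FDR = 0.312, exact sign-flip p = 0.0312, two-sided), 0.18 ± 0.49 for D14 vs. D7 (FDR = 1.0) and -0.88 ± 0.50 for D25 vs. D14 (FDR = 1.0). None of the 4 genes passed in these last 2 comparisons, where 0.0% and 0.0612% of loci did (257 and 534 loci had an unadjusted p under 0.05, and DESeq2 called 0 and 4). By D25 the difference from late lactation was 0.05 ± 0.49 (FDR = 0.959). The D3 call rested on some cows, since leaving out cow 8541, 8564, 8647 or 8713 gave an FDR of 0.0544, 0.0527, 0.0556 or 0.104. These cows held the highest LBP levels at D3 (676, 500, 623 and 1296 CPM) and also the highest summed epithelial markers of that day (2898, 4995, 2322 and 2047 CPM, against 682 to 1984 CPM in the others), and the part of epithelial content in the LBP result was not tested. In a fit of the D3 and D-3 samples alone, the log2 fold change was 1.74 with an FDR of 0.0505. Without HT cow 8513, LBP passed the threshold for D7 vs. D-3 (1.41, FDR = 0.044) and for D14 vs. D-3 (1.64, FDR = 0.0112), while with all cows it did not (0.76, FDR = 0.342 and 0.93, FDR = 0.181).

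SLPI had its highest median at D3. Its level ran from 0 over a median of 0.198 to 1.54 CPM at D-3, and from 0.0373 over 0.808 to 5.73 CPM at D3. The D3 values of CL cow 8564 (5.73 CPM), HT cow 8541 (5.12 CPM) and CL cow 8647 (2.82 CPM) lay above every other library of the series, and the remaining D3 libraries overlapped with D-3. SLPI rose in 10 of 12 cows, 5 in each treatment, by 2.37 ± 0.74 SE on the log2 scale (FDR = 0.0223, edgeR). Its within-cow change was 1.64 ± 1.62 SD (exact sign-flip p = 0.00586, two-sided). Without cow 8564 the FDR was 0.106 and without cow 8713 it was 0.0521.

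By D7, SLPI was lower again. It then ranged from 0 over 0.207 to 1.07 CPM, fell in 11 of 12 cows and rose in HT cow 8668, and 4 libraries were at 0. SLPI fell by 2.46 ± 0.71 SE on the log2 scale (FDR = 0.0419, exact sign-flip p = 0.00439, two-sided). It was the 1 gene of the 4 to pass, where 2.92% of loci did and 2.3% passed downwards. With the cow as a replicate block the value was -2.53 (FDR = 0.00606). Other alternatives lost the call. Leaving out cow 7965, 8314, 8541, 8564, 8603, 8647, 8660 or 8713 gave FDRs of 0.0512 to 0.164, and the value without cow 8564 was -2.13. Library size alone gave -2.20 (FDR = 0.193), and the 2 time points alone gave -2.42 (FDR = 0.0732). From D7 on, SLPI showed no change past the threshold, with medians of 0.28 CPM at D14 and 0.321 CPM at D25, and its difference between D25 and D-3 was 0.53 ± 0.74 (FDR = 0.684).

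The epithelial markers were also high in those D3 libraries. Their summed level at D3 was 4995 CPM in cow 8564, 2898 CPM in cow 8541 and 2322 CPM in cow 8647, and 682 to 2047 CPM in the other cows, while at D-3 it ran from 728 to 1695 CPM. Of these 4 markers, 1 rose at D3 (CLDN4, a tight junction claudin, log2 fold change 1.15, FDR = 0.0201) and 3 did not pass the threshold. From D3 to D7, 2 fell, with log2 fold changes of -1.31 for CLDN3 (FDR = 0.0209) and -0.91 for CLDN7 (FDR = 0.0464). MYH2, a skeletal muscle myosin, rose at D3 (2.95, FDR = 0.00913) and fell at D7 (-4.46, FDR = 0.00253). MYH7, the other muscle myosin tested, had the opposite signs and did not pass. It was at -0.29 at D3 (FDR = 0.66) and at 0.95 for D7 vs. D3 (FDR = 0.131). The part of epithelial or muscle content in the SLPI and LBP results was not tested. A neutrophil gene, MPO, was the single symbol of its list paired with a locus and its counts were too low to be tested, so neutrophil content was not measured here.

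**Figure D2:**
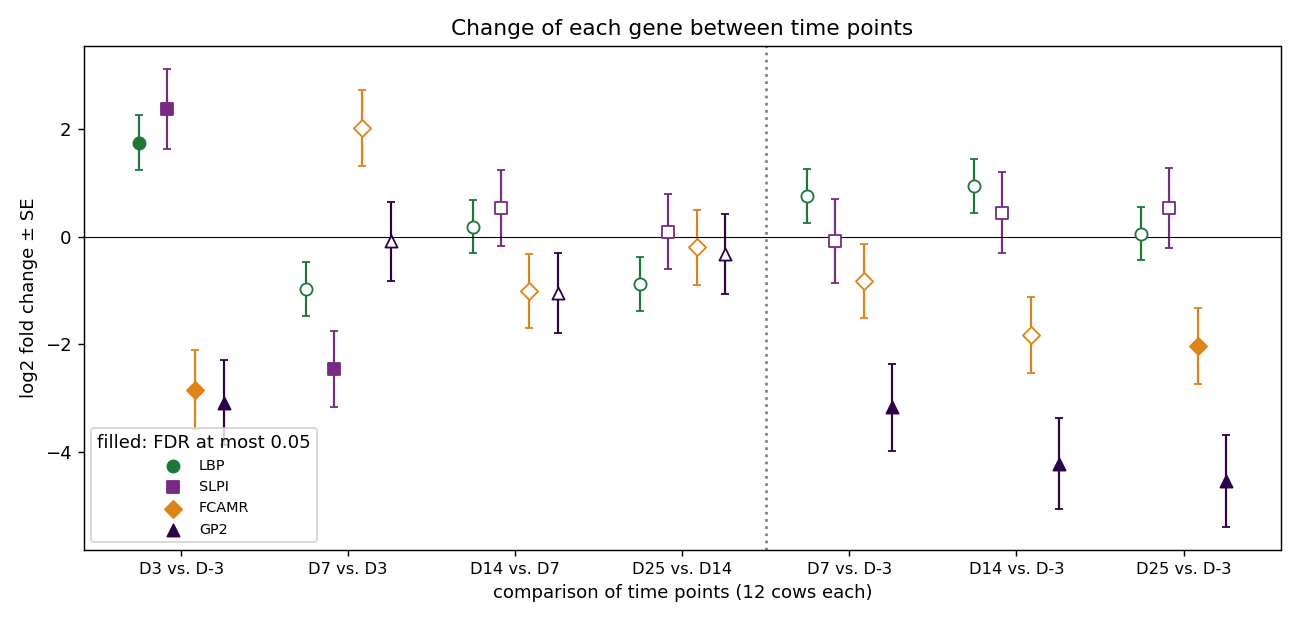
Log2 fold changes with their SE (vertical axis) are shown for the 4 genes in 7 comparisons of time points, 12 cows each, with filled symbols where the FDR was at most 0.05. LBP and SLPI lie above 0 and FCAMR and GP2 below it at D3 vs. D-3, and GP2 stays below its D-3 level in every later comparison with D-3.

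FCAMR fell at dry-off, and its change from D3 to D7 did not pass the threshold. At D-3 it ranged from 3.38 over a median of 48.4 to 209 CPM and at D3 from 1.05 over 7.01 to 33.1 CPM. The groups overlapped, but 11 of 12 cows fell, and CL cow 8686 alone rose, from 8.74 to 11.9 CPM. FCAMR fell 7.16-fold (log2 fold change -2.84 ± 0.73 SE, FDR = 0.00555, edgeR), with a within-cow change of -2.49 ± 1.95 SD (exact sign-flip p = 0.000977, two-sided). At D7 it ranged from 2.24 over 16.8 to 212 CPM and was higher than at D3 in 10 of 12 cows, 5 in each treatment. The median went from 6.39 to 30.6 CPM in HT cows, but from 9.87 to 6.15 CPM in CL cows. Over all cows the step was 2.01 ± 0.71 SE and did not pass the threshold (FDR = 0.106, exact sign-flip p = 0.193, two-sided). DESeq2 gave an adjusted p of 0.0498 with the same value of 2.01, and a block for the cow gave 1.46 (FDR = 0.256).

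FCAMR levels after D7 were between those of D3 and D-3. Its medians were 8.65 CPM at D14 and 11.2 CPM at D25, and the highest libraries held 82.4 and 46.6 CPM, both from HT cow 8668. Against D-3 the log2 fold change was -0.83 ± 0.69 at D7 (FDR = 0.467), -1.83 ± 0.70 at D14 (FDR = 0.0565) and -2.03 ± 0.71 at D25 (FDR = 0.046). Within cows, FCAMR was lower than at D-3 in 7 of 12 cows at D7, 8 at D14 and 8 at D25. The exact sign-flip p were 0.176, 0.0601 and 0.0552 (two-sided). The D14 test includes cow 7965, where FCAMR went from 173 CPM at D-3 to 0 CPM. The D14 and D25 tests were not run without the libraries that stood apart. The D14 difference passed in edgeR with the cow as a replicate block (-2.13, FDR = 0.0417), which uses all libraries and cow labels. Without a block it was -1.71 (FDR = 0.0807) without the D14 library of cow 7965. Leaving out cows 8513 and 8660 at D14 and D25 gave -1.78 (FDR = 0.0938). The D25 call was lost without cow 7965, 8513, 8541, 8564, 8647, 8660, 8686 or 8713 (FDR from 0.0507 to 0.154) and without the D14 and D25 libraries of cows 8513 and 8660 (-1.85, FDR = 0.109). With library size alone it was -0.87 (FDR = 0.215), and at D7 vs. D-3 the sign turned (0.22, FDR = 0.754).

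GP2 was lower after dry-off in the fit of all cows, but not in every cow. Its D-3 levels formed 2 clusters, with 681 CPM in cow 8647, 938 in cow 8564, 1185 in cow 7965, 1326 in cow 8541 and 1587 in cow 8713, and 3.69 to 123 CPM in the other 7 cows. The cows of the high cluster, from both treatments, were the same 5 whose milk protein genes took over 40% of the counts. With library size alone the clusters remained apart, at 228 to 497 against 4.43 to 127 CPM. At D3, GP2 ranged from 1.90 over 22.0 to 190 CPM, so the groups overlapped. GP2 fell in 9 of 12 cows. It decreased by 3.08 ± 0.79 SE on the log2 scale (8.46-fold, FDR = 0.00529, edgeR, exact sign-flip p = 0.0127, two-sided). Its within-cow change was -1.99 ± 2.43 SD. In a fit of the 2 time points alone the FDR was 0.0523.

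From D3 on, GP2 showed no step past the threshold, with medians of 25.5 CPM at D7 and at D14 and 17.4 CPM at D25. Compared with D-3, its log2 fold change was -3.17 ± 0.80 at D7 (FDR = 0.00823), -4.21 ± 0.84 at D14 (FDR = 0.000403) and -4.53 ± 0.85 at D25 (FDR = 0.000215). The other 3 genes gave 0, 0 and 1 calls in these comparisons, in which 8.46%, 19.5% and 13.1% of loci were called and 7.12%, 11.3% and 9.16% were called downwards. Within cows, GP2 was lower than at D-3 in 7 of 12 cows at D7, with a change of -1.92 ± 3.96 SD and an exact sign-flip p of 0.126 (two-sided). It was lower in 8 of 12 cows at D14 (-2.83 ± 4.37, exact sign-flip p = 0.0474) and at D25 (-2.55 ± 3.28, exact sign-flip p = 0.0278). The D14 mean includes cow 7965, where GP2 went from 1185 CPM at D-3 to 0.336 CPM. Both tests pair cows 8513 and 8660 by their labels, and neither was run without the libraries that stood apart. The cows that rose, 5 at D7, 4 at D14 and 4 at D25, were all in the low cluster at D-3. At D7 they included cow 8513 (from 13.5 to 301 CPM) and cow 8660 (from 60.7 to 137 CPM). The D7 call was lost without cow 8541 (-2.80, FDR = 0.0518) or cow 8713 (-2.76, FDR = 0.0525), in the 2 time points alone (-3.16, FDR = 0.0845) and with library size alone (-1.81, FDR = 0.0616). Without the D14 library of cow 7965 the D14 difference was -4.09 (FDR = 0.000774), and without cows 8513 and 8660 at D14 and D25 the D25 difference was -4.64 (FDR = 0.00124).

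GP2 was high in the D-3 libraries with high milk protein genes, and FCAMR was so after TMM scaling. In the 5 cows with the high milk protein share at D-3, FCAMR stood at 173 CPM in cow 7965, 185 in cow 8541, 209 in cow 8647, 98.8 in cow 8564 and 54.0 in cow 8713, and at 3.38 to 49.0 CPM in the other cows. With library size alone, the same cows held 72.6, 67.0, 69.8, 38.7 and 16.2 CPM, against 4.07 to 50.6 CPM in the others. The FCAMR ranges then overlapped through cows 8564 and 8713. At D3 the share was 3.66% to 7.45% in 4 of the 5 cows and at most 1.01% in all others, and GP2 was at 87.9 to 190 CPM in those 4 and at 1.90 to 44.6 CPM elsewhere. FCAMR was at 33.1, 21.3 and 17.9 CPM in 3 of them, but at 6.07 CPM in cow 8713, within the 1.05 to 11.9 CPM of the other cows. Cow 7965 had lost both by then, with a share of 0.225% and GP2 at 6.86 CPM. All 3 milk protein genes paired with a locus fell at D3, with log2 fold changes of -7.14 for LALBA (FDR = 0.000753), -4.65 for CSN2 (FDR = 0.0038) and -4.0 for CSN1S1 (FDR = 0.0129). The part of secretory activity in the GP2 and FCAMR changes was not tested. Since the libraries fell into clusters, no correlation coefficient is given for the milk protein share. Coefficients with CSN2 and CSN1S1 singly are given below as a description, under the same limit.

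**Figure D3:**
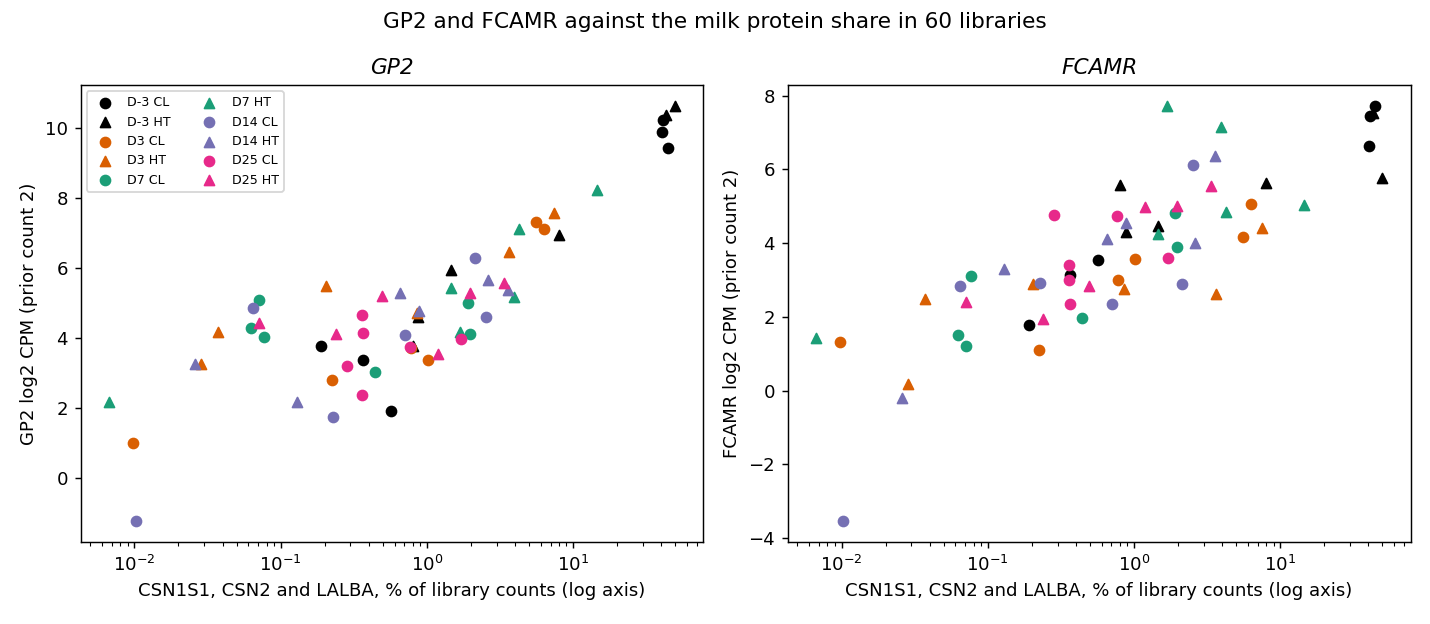
The level of GP2 (left) and FCAMR (right), as log2 CPM with a prior count of 2, is plotted against the share of library counts taken by CSN1S1, CSN2 and LALBA, on a log axis in percent, for 60 libraries with colours for days and circles (CL) or triangles (HT) for treatments. The 5 black points at 40.2% to 49.8% are the D-3 libraries with GP2 at 681 CPM or more, and the 2 highest FCAMR points at D7 lie at shares of 1.67% and 3.92%.

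Between HT and CL cows, 3 of the 4 genes could be tested, as SLPI did not reach 1 CPM in 6 of 12 libraries on any day. No gene passed the FDR threshold on any day, and neither did any locus (0.0% of 13462 to 13888 loci in edgeR). Loci with an unadjusted p under 0.05 numbered 240, 69, 615, 196 and 301 from the first day to the last, and DESeq2 called 5 loci at D7 and 1 at D25. With trended dispersions, none of the 3 genes tested passed the less stringent threshold either (unadjusted p ≤ 0.005 and a change of 0.5 or more on the log2 scale in either direction). Of the loci tested, 0.0371%, 0.0146%, 0.311%, 0.0433% and 0.036% passed it from D-3 to D25. The study's methods name tagwise dispersions. With these, the FDR at D7 was 0.112 for FCAMR and 0.265 for GP2, against 0.961 for both with trended ones. Unadjusted p with tagwise dispersions are not given here, so the less stringent threshold is left undecided for them. DESeq2 gave 0.382 and 0.639. FCAMR and GP2 had been named for a treatment difference in earlier work on these samples, so their differences are descriptions.

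The largest LBP difference preceded the treatments. At D-3, LBP ranged from 14.9 over 49.2 to 65.7 CPM in CL cows and from 48.0 over 87.7 to 537 CPM in HT cows. The groups overlapped, with 3 HT cows above every CL cow. The difference was 2.01 ± 0.62 SE (unadjusted p = 0.00643, FDR = 1.0, edgeR, n = 6 per group) and 1.27 without cow 8513, and the exact permutation test of log2 CPM gave p = 0.039 (two-sided, 1 of 20 such tests). From D3 to D14 the edgeR log2 fold changes were 0.43 ± 0.61, -0.02 ± 0.52 and 0.38 ± 0.79, with unadjusted p of 0.499, 0.969 and 0.64. The D14 fold change was 0.12 without the library of cow 7965 and 0.60 without cows 8513 and 8660. The D14 medians lay further apart, at 130.5 CPM in CL and 275.5 CPM in HT cows. Mean log2 CPM differed by 1.17 there (exact permutation p = 0.403, two-sided). That gap was 0.16 without the library of cow 7965 and 1.57 without cows 8513 and 8660. At D25, LBP ranged from 24.2 to 166 CPM in CL and from 64.8 to 262 CPM in HT (0.85 ± 0.47, unadjusted p = 0.0933, FDR = 0.997), and 0.76 without cows 8513 and 8660. Counted from D-3, the LBP change in HT minus that in CL cows was -2.02 ± 0.95 on the log2 scale at D7 (interaction unadjusted p = 0.039, FDR = 1.0), and -1.19 without cow 8513.

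FCAMR differed most at D7. CL cows ranged from 2.24 over 6.15 to 28.1 CPM and HT cows from 2.59 over 30.6 to 212 CPM. The HT cows 8713 and 8668 stood highest, at 212 and 141 CPM, and HT cow 8541 was at 2.59 CPM, among the lowest CL cows. The difference of 2.87 ± 0.92 SE had an unadjusted p of 0.00821 (FDR = 0.961, edgeR), and the exact permutation p was 0.0606 (two-sided). Set against each group's own D-3 level, the difference at D7 was 3.27 ± 1.35 (unadjusted p = 0.0188, FDR = 1.0), where 0.897% of loci had an unadjusted p under 0.05. Before the treatments FCAMR differed by -0.41 ± 0.90, and the values for D3, D14 and D25 were -0.65 ± 0.69, 0.63 ± 1.10 and 0.50 ± 0.62, with unadjusted p from 0.359 to 0.659. Mean log2 CPM at D-3 gave the other sign (0.50). At D14 the value was 0.36 without the library of cow 7965 and 0.85 without cows 8513 and 8660, and at D25 it was 0.93 without the latter.

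GP2 also had its largest edgeR fold change at D7. CL cows then ranged from 8.0 over 18.3 to 33.6 CPM and HT cows from 4.35 over 39.2 to 301 CPM. The HT cows 8513 (301 CPM) and 8660 (137 CPM) stood above the rest, and the groups overlapped. The log2 fold change was 2.10 ± 0.78 (unadjusted p = 0.018, FDR = 0.961, edgeR, exact permutation p = 0.242, two-sided) and 1.18 without cow 8513. At D25 CL cows ranged from 5.05 to 24.9 CPM and HT cows from 11.4 to 47.3 CPM, a difference of 1.01 ± 0.39 (unadjusted p = 0.0214, FDR = 0.997, exact permutation p = 0.0541, two-sided), and of 1.01 without cows 8513 and 8660. The log2 fold changes at D-3, D3 and D14 were 0.15 ± 1.42, 0.20 ± 0.97 and 0.15 ± 0.87. The D14 value was -0.09 without the library of cow 7965 and -0.32 without cows 8513 and 8660. On mean log2 CPM, D7 did not stand out, with gaps of 1.06, 1.13, 1.03 and 1.01 at D3, D7, D14 and D25. The D14 gap was 0.10 without the library of cow 7965.

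The milk protein share also differed between the groups at D7. It ran from 0.0628% over 0.259% to 1.96% in CL cows and from 0.00669% over 2.79% to 14.5% in HT cows, with the highest shares in cows 8513 (14.5%), 8660 (4.24%) and 8668 (3.92%). The 2 cows highest in GP2 were thus also highest in milk protein, and HT cow 8541, lowest in GP2 and near the lowest in FCAMR, had the lowest share. The cow highest in FCAMR, 8713 (212 CPM), had a share of 1.67%, below CL cows 8564 (1.90%, FCAMR at 28.1 CPM) and 8686 (1.96%, FCAMR at 14.7 CPM). The part of the milk protein share in these differences was not tested. Of D7 loci, 4.45% had an unadjusted p under 0.05, and FCAMR and GP2 were among them.

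**Figure D4:**
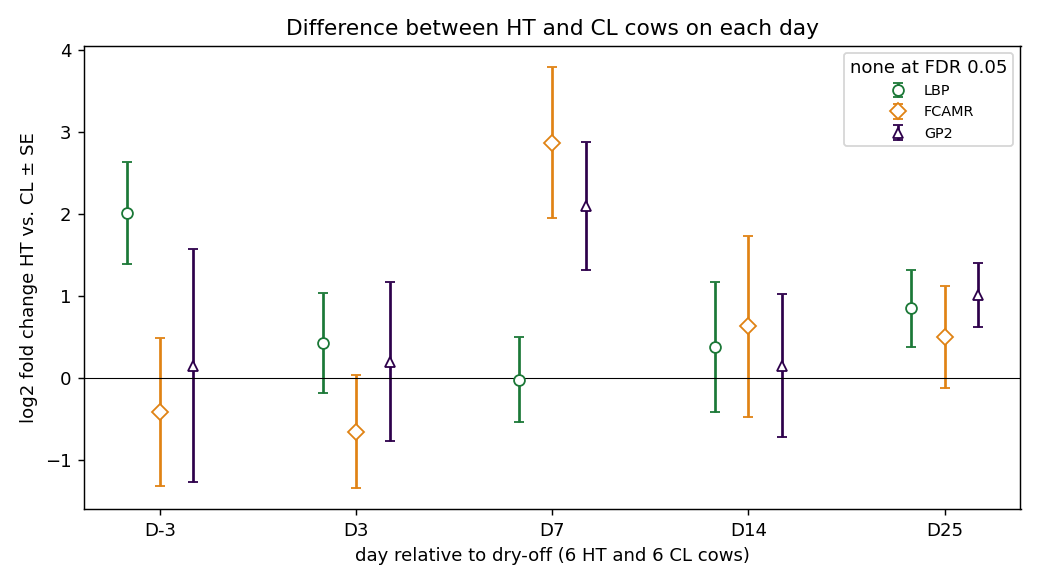
The log2 fold change of HT vs. CL cows with its SE (vertical axis) is shown for LBP, FCAMR and GP2 on each day, with 6 cows per group and open symbols because none passed an FDR of 0.05. LBP lies at 2.01 at D-3, before the treatments, and near 0 at D7, while FCAMR and GP2 lie highest at D7.

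SLPI was compared by single values. The exact permutation test gave p of 0.766, 0.861, 0.206, 0.0584 and 0.725 in the order of the time points (two-sided, n = 6 per group). At D14 CL cows ranged from 0 to 0.442 CPM and HT cows from 0.166 to 1.42 CPM, with overlap and 2 CL libraries at 0, which included that of cow 7965. The exact p for D14 was 0.113 without the library of cow 7965 and 0.0381 without cows 8513 and 8660. These levels correspond to 0 to 31 reads per library.

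Across the 60 libraries, 5 from each cow, FCAMR and GP2 were the most alike of the 4 genes (Pearson r = 0.67, Spearman rho = 0.57), followed by LBP and SLPI (r = 0.50, rho = 0.49), and r was between 0.19 and 0.26 for the other pairs. Within groups of treatment and day, r was 0.63 for FCAMR and GP2, while LBP and SLPI (0.43) did not stand out from LBP and FCAMR (0.47) or SLPI and FCAMR (0.41). These coefficients, and those that follow, describe libraries that share cows and time points and carry no test.

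The loci with a symbol most like LBP were SOD2 (mitochondrial superoxide dismutase, r = 0.873), ABHD12 (a lysophospholipase, r = 0.859), STAT3 (a transcription factor of cytokine signalling, r = 0.849), OSMR (the oncostatin M receptor, r = 0.841) and ITGB6 (an epithelial integrin, r = 0.826). SOD2 rose from a median of 35.9 CPM at D-3 to 124 CPM at D3, and OSMR from 183 to 335 CPM. The loci most like SLPI were EFHD2, GNAL, ASGR2, FNDC4 and NCF4, with r from 0.658 to 0.697. For FCAMR they were a locus that joins FOLR1 and FOLR3 (folate receptors, r = 0.885), XDH (xanthine dehydrogenase of the milk fat globule membrane, r = 0.832), MUC15 (r = 0.829), CSN2 (r = 0.828) and SNTB1 (r = 0.82). A locus with no symbol and the adjoining number, XLOC_006617, was closer to FCAMR than these (r = 0.894), and was singled out after its value was seen. For GP2 they included FAM134B (r = 0.894), SLC34A2 (a sodium-phosphate transporter, r = 0.881), ATP2C2 (a calcium pump of the secretory pathway, r = 0.855) and CSN1S1 (alpha-S1-casein, r = 0.851). Without the D14 library of cow 7965 these coefficients were between 0.671 and 0.913.

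Other genes of the same functions were read from lists, in which 17 of 92 symbols could be paired with a locus, mostly because they too ranked high in the tables. Their counts stand beside 15.1% of all loci called at D3 vs. D-3 (6.03% up, 9.04% down) and 2.92% at D7 vs. D3, and nothing is read from them. Of the 5 paired lipopolysaccharide sensing genes, 1 rose at D3 (NFKB1, an NF-kappaB subunit, log2 fold change 0.32, FDR = 0.0303) and 2 fell, the kinase IRAK1 (-0.52, FDR = 0.00337) and the adaptor TIRAP (-0.43, FDR = 0.00425). LY96, the co-receptor of TLR4 that receives lipopolysaccharide from LBP and CD14, was at 0.14 at D3 (FDR = 0.735) and fell by 0.80 from D3 to D7 (FDR = 0.0325), the 1 call of that list in that step. Neither of the 2 acute phase genes passed at D3, and SERPINA1, an elastase inhibitor of plasma, rose by D7 (1.56, FDR = 0.0366).

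Against the same shares of all loci (15.1% at D3 and 2.92% from D3 to D7), of 4 antimicrobial and antiprotease genes, SERPINB1, an intracellular inhibitor of neutrophil elastase, rose at D3 (0.64, FDR = 0.00144), SERPINB2 fell (-3.15, FDR = 0.00142) and 2 did not pass, and none passed at D7 vs. D3. Of 3 secretory immunity genes, CCL25, a chemokine, fell at D3 (-0.44, FDR = 0.00434), and CXCL13, a B cell chemokine, rose from D3 to D7 (2.24, FDR = 0.0123). Of 3 mucosal surface genes, the mucin MUC15 (-3.74, FDR = 0.00578) and the trefoil peptide TFF3 (-1.54, FDR = 0.0424) fell at D3, and MUC20 fell from D3 to D7 (-3.01, FDR = 0.0496). The median log2 fold changes at D3 were 0.01 for lipopolysaccharide sensing, 0.26 for acute phase, -0.36 for antimicrobial and antiprotease, -0.44 for secretory immunity and -1.54 for mucosal surface genes, beside -0.01 over all loci tested. From D3 to D7 they were -0.11, 0.10, 0.66, 0.44 and -0.02, beside 0.0. With trended dispersions, no gene of these lists passed the less stringent threshold between HT and CL cows on any day.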

How the data were processed

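Mammary RNA of 12 cows at 5 time points was measured by RNA-Seq. The authors trimmed single-ended NextSeq reads with Trim Galore 0.4.1, mapped them with TopHat2 2.0.13, built a merged transcript set with Cufflinks 2.2.1 from the reads and ENSEMBL genes, and used HTSeq to count the reads with a unique position at each locus. The study's methods name the bosTau7 build and the submitters' processing notes UMD3.1, so no coordinates are given. The deposited values are whole-number counts per locus, not normalized by the authors. The library kit does not mark strand, so antisense reads cannot be told apart. A locus that joins several genes was used once (742 of 25223 loci).

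TMM factors and quasi-likelihood F-tests with trended dispersions came from edgeR 4.0.16 (R 4.3.3), for loci that reached 1 CPM in 6 or more samples, with Benjamini-Hochberg FDR over all loci. Time was tested in all 60 samples with a mean per time point and no block for the cow. HT vs. CL was tested in the 12 samples of a day, and the change since D-3 as an interaction. The SE of a log2 fold change was derived from the F-test, as its absolute value divided by the square root of F. Single genes were tested on log2 CPM (prior count 2) with exact sign-flip tests (two-sided) over 4096 sign changes, smallest p 0.000488, in 28 tests, and exact permutation tests over 924 splits, smallest p 0.00216, in 20 tests, with 12 more for D14 and D25 without the libraries that stood apart. These p are not adjusted.

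Named are the 4 genes, the list genes past FDR 0.05 in D3 vs. D-3 or D7 vs. D3 (at most 3 each way per list), and the 5 most correlated loci with a symbol for each gene, of which 1 is not reported here. Symbols were paired for 3033 loci from shortened tables. The genes and lists were chosen with earlier results of these data known. Subject labels pair the samples by cow: deviations from group means correlated with a mean of 0.293 within cows and -0.0573 between cows. The scripts were tested on simulated data with 200 changed loci. Alternatives were RLE factors, library size only, TMM without milk protein genes, looser and stricter filters, DESeq2 1.42.0, tagwise dispersions, a block for the cow, a term for treatment, other sample sets, prior counts of 0.5 and 5, and each cow left out. Tables and figures used Python 3.11.15, numpy 2.4.6, pandas 2.3.3 and matplotlib 3.10.9. Sequences were not used here.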

Additional observations from a re-analysis of the deposited data

Results flagged for a closer look

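LBP in the D14 library of CL cow 7965, at 2.59 CPM, lay farther below the other 5 CL cows of that day than Dixon's test at the 95% level allows. It was the single such value among 40 groups of 6 libraries (10 groups for each of the 4 genes, on log2 CPM), of which chance alone flags about 1 in 20. The same library held 8.01 CPM of the summed epithelial markers, and the part of its cell content in the LBP value was not tested.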

How the results depend on the processing

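Of 634 values under the alternatives other than leaving out a cow, 580 kept their direction and their side of the threshold. All rest on 12 cows and 20525083 or more counts per library. SLPI had a median of 6 reads, so depth limits it most, and the stricter filter left no value for it. Where no value bears on it, the cause of a change was not tested.

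The FDR calls that changed were these. With only the time points compared (fewer samples), LBP at D3 was 1.74 (FDR = 0.0505), GP2 at D3 -3.09 (FDR = 0.0523), SLPI at D7 vs. D3 -2.42 (FDR = 0.0732) and GP2 at D7 vs. D-3 -3.16 (FDR = 0.0845), and 839, 0, 887 and 921 loci were called for D3, D7, D14 and D25 vs. D-3. With library size only, SLPI at D7 vs. D3 was -2.2 (FDR = 0.193), GP2 at D7 vs. D-3 -1.81 (FDR = 0.0616) and FCAMR at D25 vs. D-3 -0.87 (FDR = 0.215). Signs that turned there were GP2 at D7 vs. D3 (0.07), SLPI and FCAMR at D7 vs. D-3 (0.63 and 0.22) and FCAMR between HT and CL at D-3 (0.13). Library size only called 36 loci for D7 vs. D3 (12 up, 24 down, against 92 and 338), 4 for D25 vs. D14, and 23, 4587 and 6037 for D7, D14 and D25 vs. D-3, of which 5, 4420 and 5852 were up (197, 1211 and 582 with TMM), with the median of all loci at 0.41, 0.43 and 0.48. No filter gave SLPI -2.46 at D7 vs. D3 (FDR = 0.0562), FCAMR -2.02 at D25 vs. D-3 (FDR = 0.0608) and 26 loci for D25 vs. D14.

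With DESeq2, FCAMR passed at D7 vs. D3 (2.01) and D14 vs. D-3 (-1.85), SLPI at D7 vs. D3 had no adjusted p, and calls numbered 716 for D7 vs. D3, 4 for D25 vs. D14, 5 and 1 between HT and CL at D7 and D25, and 1 for the change since D-3 at D7. Tagwise dispersions gave FCAMR -1.84 at D14 vs. D-3, called, and, in the steps from D3, D7 and D14 to the next day, 648, 10 and 30 loci, with 1, 7 and 1 between HT and CL at D-3, D7 and D25. Treatment as a covariate gave FCAMR -1.93 at D14 vs. D-3 (FDR = 0.046) and 0 loci for D25 vs. D14. Without the D14 library of cow 7965, D25 vs. D14 had 0 loci and SLPI at -0.03, and GP2 between HT and CL at D14 was -0.09. Without cows 8513 and 8660 at D14 and D25, D25 vs. D14 had 15 loci, LBP at D25 vs. D-3 was -0.08, FCAMR at D25 vs. D-3 -1.85, and GP2 between HT and CL at D14 -0.32.

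With the cow as a replicate block, FCAMR passed at D14 vs. D-3 (-2.13, FDR = 0.0417), GP2 at D7 vs. D3 was 0.22 and SLPI at D25 vs. D14 -0.17, neither called, and no other call of the 4 genes in the comparisons of days changed. The block called 881 loci for D7 vs. D3, 0 for D25 vs. D14, 1950 for D7 vs. D-3 and 3003 for D25 vs. D-3.

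Without 1 cow at a time, 1228 to 2509 loci were called for D3 vs. D-3, 52 to 610 for D7 vs. D3, 0 to 11 for D25 vs. D14, and 303 to 1911, 1523 to 3616 and 865 to 2146 for the later days vs. D-3. Cows 8541, 8564, 8647 and 8713 each moved the counts against D-3 by over 1.5 times, to 1228 to 1391, 303 to 400, 1523 to 1867 and 865 to 1100 in day order. Cow 7965 did so for D7 (685) and D14 (1537) and cow 8513 for D7 (1911). D7 vs. D3 had 52 to 286 loci without cow 8060, 8314, 8541, 8564, 8603, 8647, 8660 or 8713, and D25 vs. D14 had 0 to 5 without cow 7965, 8314, 8541, 8668 or 8713. Against D-3, LBP ranged over 1.3 to 2.44 (D3), 0.53 to 1.41 (D7), 0.72 to 1.64 (D14) and -0.15 to 0.72 (D25). SLPI ranged over 1.95 to 2.57 (D3), -0.54 to 0.28 (D7) and -0.05 to 0.99 (D25) against D-3, over -2.96 to -2.13 from D3 to D7 and over -0.08 to 0.31 from D14 to D25. FCAMR ranged over -1.53 to -0.45 (D7), -2.34 to -1.49 (D14, called without cow 8603 or 8668, at -2.28 and -2.34) and -2.3 to -1.69 (D25) against D-3, and over -0.38 to 0.08 from D14 to D25. GP2 ranged over -4.03 to -2.76 (D7) against D-3 and over -0.94 to 0.36 from D3 to D7. Between HT and CL, LBP ranged over -0.31 to 0.74 (D3) and -0.42 to 0.24 (D7), FCAMR over -1.11 to 0.1 (D-3), -1.2 to -0.06 (D3), -0.26 to 2.2 (D14) and 0.09 to 0.76 (D25), and GP2 over -0.6 to 0.66 (D-3), -0.52 to 0.83 (D3) and -0.09 to 0.94 (D14), and the LBP change since D-3 at D7 over -2.58 to -1.19.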

Other observations

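Markers of other cells were read from lists in which 17 of 83 symbols could be paired with a locus, under the same limits. At D3, KRT80, a keratin of differentiating epithelia, rose by 2.09 on the log2 scale (FDR = 0.00805) and KRT24 fell by 5.86 (FDR = 7.78e-05), and KRT80 fell from D3 to D7 (-2.45, FDR = 0.0123). FABP4, a fatty acid carrier of adipocytes, fell at D3 (-1.71, FDR = 0.013), while ADIPOQ was at -0.84 (FDR = 0.214). KDR, the endothelial VEGF receptor, fell at D3 (-0.95, FDR = 0.0023). DCN of fibroblasts was at 0.12 (FDR = 0.795) and DERL3, the 1 paired plasma cell gene, at -0.14 (FDR = 0.61). No macrophage, B cell or T cell marker could be paired, so these cells were not measured here.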
